A study of Mus musculus with 46 samples.

Results

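The type I interferon response genes are a list of 39 mouse genes that cells switch on when interferon reaches them. The list was named with earlier results of these data known. All 39 were found by their Ensembl identifiers among the 43346 genes of the deposited tables. Their RNA was measured in the right striatum and the cortex of 23 mice aged 12 weeks, with 1 sequencing library per tissue and animal and 46 libraries in all. All mice were labelled as C57BL6/J background. The groups were 8 wild-type (WT) mice given vehicle, 7 mice with the transgene Tg(HDexon1)62Gpb (R6/2) given vehicle, and 8 R6/2 mice given CHDI-00340246. CHDI-00340246 inhibits kynurenine 3-monooxygenase (KMO), an enzyme of tryptophan breakdown that in brain is found mainly in microglia. It was given by mouth at 30 mg/kg, b.i.d., between week 4 and week 12 of life, and all other mice received the cyclodextrin and citrate vehicle alone. There were 4 females in every group, with 4 males among WT and among treated mice and 3 among vehicle R6/2 mice. R6/2 is 1 transgenic line that carries, under the human promoter, the first exon of human HTT with a long CAG repeat, so it models Huntington's disease without the full-length mutant protein. No WT mouse received the compound, so its effect was read in R6/2 mice alone.

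Type I interferons bind a receptor made of Ifnar1 and Ifnar2, and the kinases Jak1 and Tyk2 on its inner face phosphorylate STAT proteins, among them Stat2. These join Irf9 in a complex that binds a short promoter sequence, the interferon-stimulated response element, and switches on the response genes. Their products sense viral RNA, stop its translation, cut it or trap virus particles. Irf7, itself a response gene, raises interferon production further, while Usp18 binds the receptor and damps the signal. In brain, microglia, astrocytes, endothelial cells and neurons can all respond.

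Depth per library, in units of 1000000 counts, was 30.4 to 36.0 in striatum and 31.8 to 37.8 in cortex. Levels are given as CPM (counts per 1000000 counts, scaled over all 46 libraries), and levels of different genes are set side by side as FPKM, which are scaled to gene length. A gene was called where its adjusted p in edgeR's quasi-likelihood test was under 0.05 (Benjamini-Hochberg over all genes tested in that comparison), and a fold change is given on the log2 scale with its standard error (SE). Of the 39 genes, 38 passed the filter on low counts in each tissue. The exception was Oas3, an oligoadenylate synthetase, with a mean of 0.0674 CPM in WT striatum and 0.164 CPM in vehicle R6/2 cortex. In the 16 WT libraries alone 36 of the 39 would have passed, and Mx1 and Zbp1 would not.

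One WT mouse stood apart in these genes before any comparison was made. A score was formed for each library as the mean, over the 38 tested genes, of its log2 CPM minus the WT mean of that tissue. The female numbered WT animal 8 scored 0.96 in striatum, where the other 7 WT mice ran from -0.36 to 0.15, and 0.52 in cortex, where they ran from -0.24 to 0.20. It had the highest WT level in 36 of the 38 genes in striatum and in 30 in cortex. Over all genes tested it was the highest WT library in 8.81% and 14.7%. Its median log2 difference from the other WT mice was 0.94 over the 38 genes in striatum against -0.01 over all genes, and 0.50 against 0.00 in cortex. Usp18 was 5.50-fold above the mean of the other WT mice in striatum and 3.01-fold above it in cortex. The chemokine Cxcl10, which draws T cells, was at 3.20 CPM in its striatum, where the other WT mice reached 0.193 CPM and R6/2 mice 0.597 CPM. Its summed level of 15 microglial markers was 661 CPM in striatum, inside the range of the other WT mice (606 to 838 CPM), and 580 CPM in cortex, where they ran from 432 to 578 CPM. Its summed level of 12 T and NK cell markers in striatum was 111 CPM, also inside their range of 95.1 to 123 CPM. Of those 12 genes only 2, Cd4 and Lck, passed the filter, so that sum cannot show whether T or NK cells were raised. Besides the cortical microglial sum, those of monocytes (2.81 against 0.637 to 2.16 CPM) and neurons (6240 against 6940 to 7840 CPM) in cortex lay outside the other WT mice. In striatum that of astrocytes did (5360 against 4310 to 5350 CPM). The part of these markers in its level was not tested. The comparisons with WT below include this animal, and their main counts are also given without it. Animal 8 was singled out by high levels of these same genes. Leaving it out lowers most of their WT means and narrows their spread, so larger rises follow by construction. Fold changes, calls and adjusted p without it are given as a description and add no support.

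Promoter letters are shown first, as a description. The list was named for a response that is switched on through the interferon-stimulated response element. A raised share of that element therefore comes with the list and says nothing about these mice. RefSeq sequences of the 250 bases before the gene start (GRCm38.p6) were matched by symbol for 28 of the 39 genes. The interferon element was searched as TTTC, any 2 bases, then TTTC, on either strand, so that it reads GAAA, any 2 bases, then GAAA on the other. It was present in 14 of the 28 (50.0%), against 936 of the 27025 genes with a promoter searched in the same way (3.46%). A gene was counted where any of its promoters matched. The core bound by STAT dimers, TTC, any 3 bases, then GAA, was present in 5 of the 28 (17.9%) against 8.13%. Matches that overlap were counted apart. Shown here, each on the strand of its gene and with the matched bases in capitals, are Ifit1 and Oas1a, which rose most of the members with a match, Isg15, whose element holds 3 overlapping matches, Rsad2, Trim30a, the member with the smallest p for the compound, and Stat2, which has the element and did not pass the test in either tissue. They lie at chr19:34640760-34640838 (plus strand) for Ifit1, chr5:120907526-120907570 (minus) for Oas1a, chr4:156200850-156200921 (minus) for Isg15, chr12:26456538-26456597 (minus) for Rsad2, chr7:104465195-104465254 (minus) for Trim30a and chr10:128270251-128270310 (plus) for Stat2.
Ifit1: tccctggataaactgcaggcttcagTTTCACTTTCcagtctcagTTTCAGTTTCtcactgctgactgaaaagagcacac
Oas1a: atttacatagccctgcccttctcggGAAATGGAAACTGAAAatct
Isg15: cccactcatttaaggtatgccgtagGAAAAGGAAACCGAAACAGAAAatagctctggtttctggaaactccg
Rsad2: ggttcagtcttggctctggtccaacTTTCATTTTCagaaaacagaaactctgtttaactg
Trim30a: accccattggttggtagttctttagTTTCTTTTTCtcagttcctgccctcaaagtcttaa
Stat2: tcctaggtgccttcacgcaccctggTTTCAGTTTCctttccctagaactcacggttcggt

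Ifit3 and Ifit3b, neighbours on chromosome 19, had the same 94 letters around the same 2 matches. Such copies share reads, and the deposited counts can split a read between them, so their values are not independent of each other. The same caution holds for Oas1a and Oas1b and for Gbp2 and Gbp3. Irf7, Ifi44 and Oasl2, 3 of the members that rose most, had no match in their 250 bases, which says only that these letters were not in that window. A match is a description of the sequence and was not tested for binding.

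The first comparison asked which of these genes differed between vehicle R6/2 and vehicle WT mice. In striatum 28 of the 38 genes tested rose and 0 fell, and in cortex 33 rose and 0 fell. Of all genes tested, 25.7% rose and 24.4% fell in striatum, and 21.3% rose and 22.6% fell in cortex. Among the 36 genes that pass the filter in WT libraries alone, 32 were called in cortex. The median log2 fold change of the 38 genes was 0.63 in striatum and 0.77 in cortex, where the median of all genes was 0 in both. A set of 25 genes rose in both tissues, 3 were called in striatum alone (Ifit2, Ifi27 and Igtp), 8 in cortex alone, and 2 in neither (Stat2 and Mx1). Without WT animal 8 the count in striatum was 34, made of the same 28 with Isg15, Ifit3b, Ifi35, Mx1, Zbp1 and Gbp2, and the median was 0.82. In cortex it was 34, with Mx1 added to the 33, and the median was 0.85. Both counts of 34 include Mx1 and Zbp1, which would not pass the filter in WT libraries alone. Without animal 8, 4271 of all 17360 genes rose in striatum and 3545 of 17437 in cortex. In either direction 48.1% and 41.9% were called, and the median of all genes was 0.0 and 0.01. On the deposited FPKM scale (limma on log2(FPKM + 0.1)) the median of all genes shifted by 0.12 in striatum, calls over all genes split into 6933 higher and 2722 lower against 4477 and 4249 on counts, and 34 of these genes rose. Vehicle R6/2 and WT cortex share run tags L7 and L8, and within these, which hold all 8 WT and 4 of the 7 vehicle R6/2 libraries, 33 of the 38 genes and 3688 of all 17459 tested rose. In cortex the FPKM scale gave 5451 higher and 2988 lower against 3725 and 3951, and again 34 of these genes rose.

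**Figure D1:**
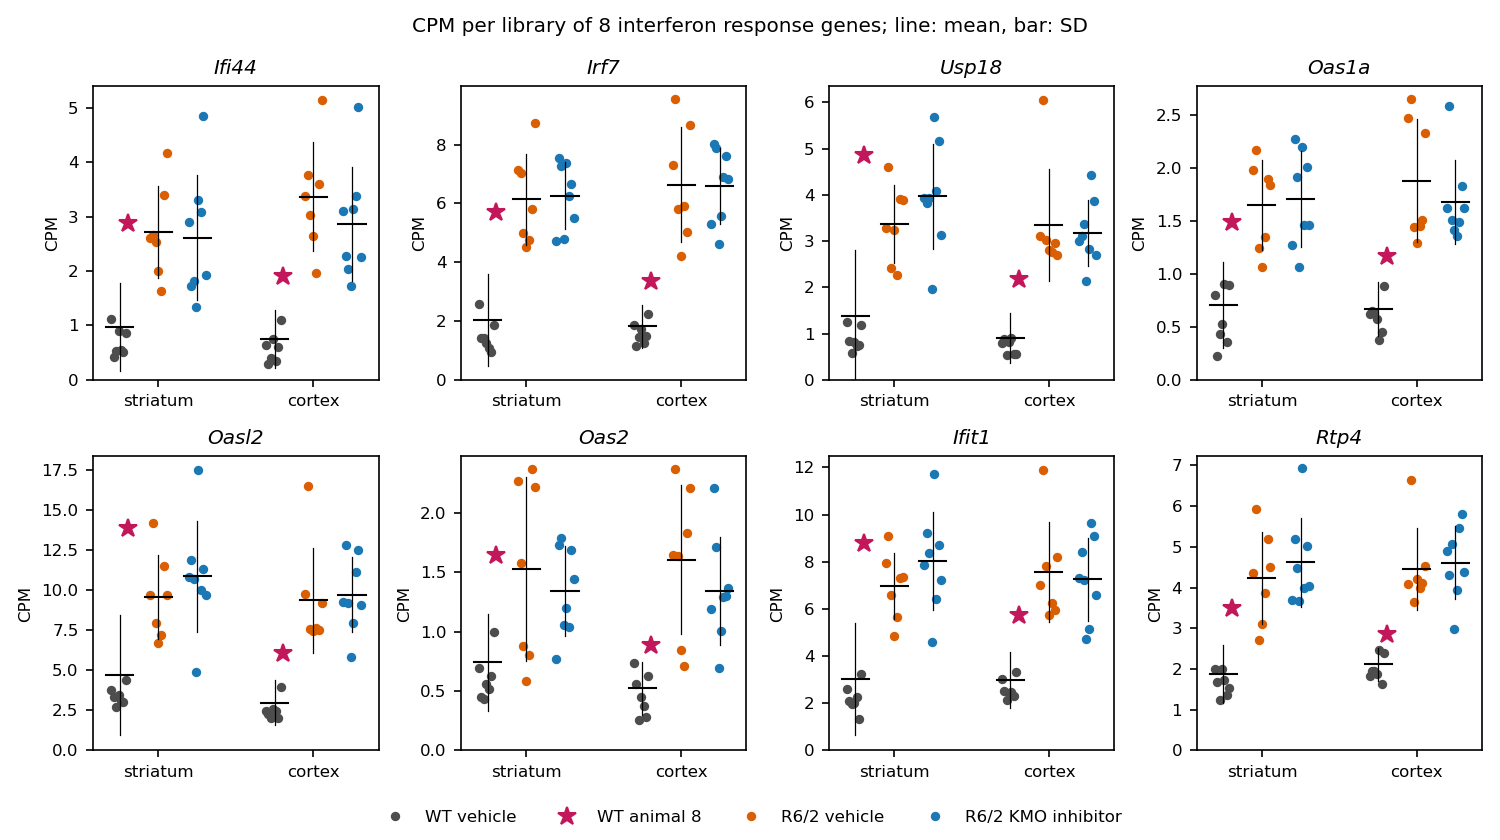
CPM of 8 interferon response genes in every library, by tissue and group; each point is 1 animal, the line is the mean and the bar the SD, and the star marks WT animal 8, which is part of the WT mean. In cortex all 7 vehicle R6/2 points of 7 of the 8 genes lie above all WT points (Oas2 overlaps), while in striatum the star lies among the R6/2 points. The 8 genes were picked for large changes in these same data, so their separation adds no support. Over the 38 genes it held for 17 in cortex (7.14% of all genes) and 2 in striatum (9.37%).

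The transcription factors of the pathway did not move together. Irf7 (chr7:141262706-141266481, mm10, minus strand), which switches on interferon genes, was at 0.962, 1.43 and 5.71 CPM (lowest, median and highest of 8) in WT striatum and at 4.53, 5.81 and 8.72 CPM in the 7 vehicle R6/2 striata. In cortex these levels were 1.15, 1.60 and 3.38 CPM in WT and 4.22, 5.92 and 9.54 CPM in vehicle R6/2 mice. Only WT animal 8 reached the R6/2 range in striatum, and no WT mouse did in cortex. Irf7 rose by 1.60 ± 0.29 (adjusted p = 9.58e-05) in striatum and by 1.85 ± 0.21 (adjusted p = 1.7e-07) in cortex by edgeR, and by 2.09 and 2.08 without WT animal 8. Irf7 overlaps Phrf1 on the other strand, and reads of the pair cannot be told apart without strand.

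Irf9, the DNA-binding part of the STAT complex, moved far less. Its levels were 13.2, 16.1 and 20.8 CPM in WT and 16.5, 20.7 and 24.0 CPM in vehicle R6/2 striatum, with overlap between the groups. In cortex they were 13.1, 14.2 and 16 CPM against 17.5, 19.2 and 21.5 CPM, with none. It rose by 0.33 ± 0.09 (adjusted p = 0.00608) and 0.42 ± 0.06 (adjusted p = 6.32e-06). Stat2, its partner, was at 26.7, 29.9 and 35.2 CPM in WT and 28.1, 29.2 and 31.8 CPM in vehicle R6/2 striatum, and at 31.4, 35.4 and 39.1 against 29.7, 33.2 and 35.4 CPM in cortex. The groups overlapped in both tissues, and its log2 differences of -0.02 ± 0.05 (adjusted p = 0.712) and -0.10 ± 0.05 (adjusted p = 0.105) did not pass the test. Irf1, a factor that answers interferon gamma as well, was 0.09 ± 0.11 apart in striatum and not called, and rose by 0.26 ± 0.10 in cortex (adjusted p = 0.0387), a call kept under 14 of 25 alternatives and left-out libraries (adjusted p up to 0.101).

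Isg15 is a ubiquitin-like protein that is joined to other proteins in the response, and Usp18 takes it off. Usp18 (chr6:121245906-121270917, plus strand), which also damps receptor signalling, was at 0.571, 0.835 and 4.85 CPM in WT and 2.26, 3.29 and 4.61 CPM in vehicle R6/2 striatum. In cortex it was at 0.542, 0.809 and 2.18 CPM against 2.71, 2.96 and 6.05 CPM. All 7 vehicle R6/2 striata lay above 7 of the 8 WT striata and below WT animal 8, while the cortical groups did not overlap. Usp18 rose by 1.31 ± 0.36 (adjusted p = 0.00409) and 1.86 ± 0.25 (adjusted p = 2.61e-06). Isg15 itself was not called in striatum (0.32 ± 0.25, adjusted p = 0.306) and rose in cortex by 0.77 ± 0.18 (adjusted p = 0.00104). WT animal 8 held 4.72 CPM of Isg15 in striatum, above all 15 R6/2 striata, and without it the striatal change was 0.69 (adjusted p = 0.00188).

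The oligoadenylate synthetases make the short chains that activate RNase L, which cuts viral RNA. Oas1a (chr5:120896256-120907521, minus strand) was at 0.227, 0.664 and 1.49 CPM in WT and 1.06, 1.84 and 2.17 CPM in vehicle R6/2 striatum, and at 0.376, 0.622 and 1.17 against 1.29, 1.51 and 2.65 CPM in cortex. The striatal groups overlapped through WT animal 8 and the cortical groups did not. Oas1a rose by 1.23 ± 0.28 (adjusted p = 0.000903) and 1.47 ± 0.22 (adjusted p = 7.87e-06). Oas2 (chr5:120730333-120749853, minus) spread most among vehicle R6/2 striata, from 0.584 to 2.37 CPM with a median of 1.58 CPM, against 0.437 to 1.65 CPM with a median of 0.597 CPM in WT. In cortex its WT levels were 0.257, 0.506 and 0.885 CPM and its vehicle R6/2 levels 0.709, 1.65 and 2.37 CPM, and the groups overlapped in both tissues. It rose by 1.05 ± 0.32 (adjusted p = 0.00958) and 1.61 ± 0.29 (adjusted p = 6.8e-05).

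Oasl2 (chr5:114896936-114912234, plus), a relative of these enzymes, was at 2.69, 3.37 and 13.9 CPM in WT and 6.70, 9.69 and 14.2 CPM in vehicle R6/2 striatum. In cortex it was at 2.02, 2.43 and 6.10 CPM against 7.44, 7.64 and 16.5 CPM. The WT maximum was animal 8 in both tissues, and the cortical groups did not overlap. Oasl2 rose by 1.04 ± 0.31 (adjusted p = 0.00719) and 1.64 ± 0.24 (adjusted p = 9.59e-06). Oas1b, annotated as a polymorphic pseudogene and known to be truncated in this strain, rose by 0.91 ± 0.23 and 1.19 ± 0.20.

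Of the Ifit family, whose proteins bind viral RNA and block its translation, 3 of 4 members rose in cortex and 3 of 4 in striatum. Of all genes tested, 21.3% rose in cortex and 25.7% in striatum. Ifit3 and Ifit3b can share reads, so the 4 members are not separate observations and were not tested against these shares. Ifit1 (chr19:34640871-34650009, plus) was at 1.35, 2.18 and 8.78 CPM in WT and 4.87, 7.29 and 9.09 CPM in vehicle R6/2 striatum, and at 2.14, 2.49 and 5.75 against 5.76, 7.01 and 11.9 CPM in cortex. In both tissues the WT maximum was animal 8, which in cortex lay just below the lowest vehicle R6/2 mouse. Ifit1 rose by 1.21 ± 0.30 (adjusted p = 0.00169) and 1.33 ± 0.21 (adjusted p = 1.82e-05). Ifit3 rose by 0.70 ± 0.26 (1.07 without WT animal 8) and 0.96 ± 0.18, and Ifit3b by 0.54 ± 0.13 in cortex (0.38 ± 0.23 in striatum, adjusted p = 0.186; 0.67 without WT animal 8, adjusted p = 0.00383). Ifit2 rose by 0.35 ± 0.11 in striatum (adjusted p = 0.00881) and was 0.18 ± 0.08 apart in cortex (adjusted p = 0.0623), and the difference between these was not called (0.16 ± 0.14, adjusted p = 0.518).

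Of 4 members that sense viral nucleic acid in the cytosol or regulate such sensors, 2 rose in striatum and 4 were called higher in cortex. The cortical count includes Zbp1, which is given below as a description only. Of all genes tested, 25.7% rose in striatum and 21.3% in cortex, and 4 genes are too few to set against these shares. Ddx58, which encodes the RNA sensor RIG-I, rose by 0.78 ± 0.11 in striatum (adjusted p = 4.24e-06) and 0.89 ± 0.09 in cortex (adjusted p = 5.8e-08), from 6.86 ± 1.52 to 11.7 ± 1.33 CPM and from 6.54 ± 0.916 to 12.2 ± 1.77 CPM (mean ± SD, n = 8 and 7). Ifih1, the gene of the long-RNA sensor MDA5, rose by 0.56 ± 0.13 and 0.41 ± 0.08. Dhx58, which encodes their regulator LGP2, was 0.05 ± 0.17 apart in striatum (adjusted p = 0.843) and rose by 0.51 ± 0.18 in cortex, a call kept under 22 of 25 alternatives and left-out libraries. Zbp1, a sensor of left-handed nucleic acid that triggers cell death, was near the limit of detection, with means of 0.279 and 0.413 CPM in WT and vehicle R6/2 striatum and 0.136 and 0.472 CPM in cortex. It would not have passed the filter in WT libraries alone, so its cortical difference of 1.73 ± 0.42 (adjusted p = 0.00179) is given as a description. In striatum it was not called (0.56 ± 0.40; 1.02 without WT animal 8, adjusted p = 0.0219).

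Among the members that are antiviral effectors the largest change belonged to Ifi44 (chr3:151730922-151749960, minus strand), a cytoplasmic protein induced by interferon. It was at 0.421, 0.707 and 2.89 CPM in WT and 1.63, 2.61 and 4.16 CPM in vehicle R6/2 striatum, and at 0.294, 0.623 and 1.90 against 1.96, 3.38 and 5.15 CPM in cortex. WT animal 8 overlapped the R6/2 range in striatum and stayed just below it in cortex. Ifi44 rose by 1.49 ± 0.36 (adjusted p = 0.00155) and by 2.14 ± 0.32 (adjusted p = 1.12e-05), and by 2.01 and 2.52 without that animal. Rtp4 (chr16:23520291-23614222, plus), a receptor chaperone that binds viral RNA, was at 1.24, 1.71 and 3.49 CPM in WT and 2.72, 4.36 and 5.92 CPM in vehicle R6/2 striatum, and at 1.62, 1.94 and 2.85 against 3.64, 4.12 and 6.64 CPM in cortex. Its groups overlapped in striatum through WT animal 8 and were apart in cortex. Rtp4 rose by 1.17 ± 0.19 (adjusted p = 2.47e-05) and 1.07 ± 0.15 (adjusted p = 3.87e-06). Its annotated span overlaps Masp1 on the other strand.

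Rsad2, which encodes viperin, rose by 0.84 ± 0.24 and 0.99 ± 0.20, and Bst2, the gene of tetherin, by 0.74 ± 0.24 and 1.0 ± 0.19. Lgals3bp, a secreted glycoprotein, rose by 0.76 ± 0.15 and 0.87 ± 0.13, and Xaf1, a partner of apoptosis inhibitors, by 0.49 ± 0.10 and 0.47 ± 0.11. Mx2 rose by 0.58 ± 0.21 (0.89 without WT animal 8) and 0.62 ± 0.16, and Mx1 was not called (0.67 ± 0.49 and 0.66 ± 0.28, adjusted p = 0.266 and 0.0642; 1.74 and 0.80 without WT animal 8, adjusted p = 0.000123 and 0.0299). Mx1 would not have passed the filter in WT libraries alone, so its values are given as a description. Both Mx genes are known to be defective in this mouse background, and Mx2 is annotated as a polymorphic pseudogene. Ifi35 and Cmpk2, a mitochondrial nucleotide kinase, rose in cortex (0.52 ± 0.13 and 0.31 ± 0.07) and were not called in striatum (0.27 ± 0.14 and 0.10 ± 0.07).

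The remaining members were enzymes of protein modification and GTPases. Of the PARP family, which attach ADP-ribose, Parp12 rose by 0.71 ± 0.09 and 0.75 ± 0.08, Parp9 by 0.63 ± 0.14 and 0.76 ± 0.11, and Parp14 by 0.46 ± 0.15 and 0.99 ± 0.14. Trim25, the ubiquitin ligase of RIG-I, rose by 0.64 ± 0.09 and 0.61 ± 0.12, and Trim30a by 0.41 ± 0.17 (adjusted p = 0.0411) and 0.79 ± 0.13. The immunity-related GTPase gene Irgm1 rose by 0.75 ± 0.11 and 0.63 ± 0.10. Igtp (Irgm3), which overlaps Irgm2, rose by 0.79 ± 0.18 in striatum and was 0.32 ± 0.17 apart in cortex (adjusted p = 0.131). Among guanylate-binding proteins Gbp3 rose by 0.58 ± 0.19 and 0.93 ± 0.18, and Gbp2 by 0.65 ± 0.15 in cortex (0.22 ± 0.16 in striatum and not called; 0.41 without WT animal 8, adjusted p = 0.00582). Beside Trim30a the striatal calls with the highest adjusted p were Ifit3 (0.0298) and Mx2 (0.0239). The striatal calls of Trim30a and Ifit3 were each kept under 14 of 24 alternatives and left-out libraries, with adjusted p up to 0.11 and 0.0663.

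**Figure D2:**
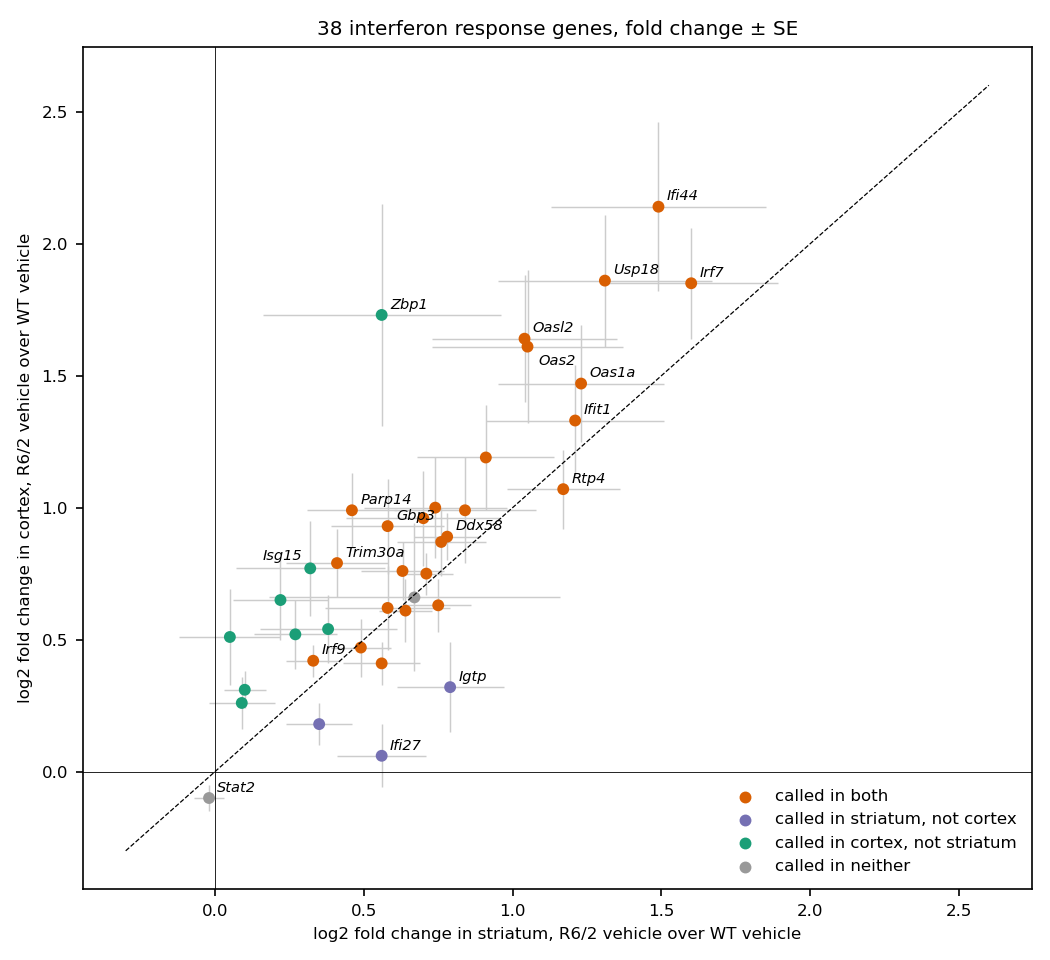
Log2 fold change of vehicle R6/2 over WT in striatum (x) and in cortex (y) for 38 genes, with SE bars; colour gives the calls and the dashed line marks equal changes. Ifi27 and Igtp lie below the line, Ifi44 lies highest, and Stat2 lies near the origin.

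How far the groups were apart animal by animal depended on WT animal 8. In striatum all 7 vehicle R6/2 libraries lay above all 8 WT libraries for 2 of the 38 genes, Parp12 and Lgals3bp, against 9.37% of all genes. Set against the other 7 WT libraries this held for 19 of the 38, against 9.83% of all genes. In cortex it held for 17 of the 38 with all WT libraries (7.14% of all genes) and for 22 without animal 8 (7.57%). For none of the 38 did all vehicle R6/2 libraries lie below all WT libraries, which held for 12.0% of genes in striatum and 9.20% in cortex. The SD between animals was above that of the median gene, though genes were not matched for level and the WT values include animal 8. The median SD of log2 CPM over the 38 genes was 0.39 in WT striatum, 0.31 in vehicle and 0.25 in treated R6/2 striatum, against 0.17, 0.14 and 0.17 over all genes. In cortex it was 0.29, 0.28 and 0.28 against 0.15, 0.18 and 0.17. The 90th percentile of the SD over all genes, 0.46 to 0.53 by group, lay above each of these medians. The part of low counts in the spread was not tested.

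Whether the R6/2 effect differed between tissues was tested as an interaction, in a joint fit of both tissues blocked by animal. It was called for 5 of the 38 genes, against 15.7% of all genes, so the share of the 38 was not above the background. Ifi27, a mitochondrial membrane protein, rose in striatum, from 15.5, 17.0 and 24.3 CPM in WT to 21.6, 26.6 and 34.3 CPM in vehicle R6/2 mice. In cortex its levels of 17.4, 19.1 and 22.3 CPM and 16.2, 19.5 and 26.7 CPM overlapped. Its striatal change of 0.56 ± 0.15 exceeded the cortical change of 0.06 ± 0.12 by 0.49 ± 0.11 (adjusted p = 0.00284). The other 4 had smaller changes in striatum. Ifi44 differed by -0.64 ± 0.15 (adjusted p = 0.00426), Parp14 by -0.55 ± 0.14 (adjusted p = 0.00881), Gbp3 by -0.35 ± 0.11 (adjusted p = 0.0247) and Trim30a by -0.39 ± 0.13 (adjusted p = 0.0418).

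Parp14 went from 4.21, 5.58 and 9.45 CPM in WT to 5.53, 8.31 and 10.6 CPM in vehicle R6/2 striatum, and from 3.30, 4.46 and 6.23 to 6.79, 9.40 and 12.9 CPM in cortex. Gbp3 went from 4.40, 6.33 and 10.6 to 6.17, 9.21 and 11.6 CPM, and in cortex from 4.24, 4.84 and 8.06 to 6.94, 9.50 and 15.4 CPM. Trim30a went from 2.71, 3.38 and 6.22 to 3.45, 4.87 and 6.43 CPM, and in cortex from 2.31, 2.96 and 3.83 to 4.07, 5.20 and 6.43 CPM. For all 3 the striatal groups overlapped, and for Parp14 and Trim30a the cortical groups did not. With each of the 15 animals of these 2 groups left out in turn, the differences of Ifi27, Ifi44 and Parp14 were called 15 times, that of Gbp3 12 times and that of Trim30a 2 times. Without WT animal 8 Gbp3 (adjusted p = 0.0532) and Trim30a (adjusted p = 0.094) lost their calls, and Igtp gained one (0.58, adjusted p = 0.0215). The difference of Igtp was 0.47 ± 0.17 with that animal (adjusted p = 0.0654).

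Without the transgene the tissues also differed. In a fit of the 16 WT libraries blocked by animal, 15 of the 36 genes tested were called between striatum and cortex, 8 higher in striatum and 7 lower, against 62.7% of all genes. Oasl2 was higher in striatum by 0.51 ± 0.11 and Igtp lower by 0.94, Ifih1 lower by 0.80 and Irgm1 lower by 0.74 on the log2 scale. Without WT animal 8 the count was 14, of which 5 were higher and 9 lower in striatum. On the FPKM scale Ifi27 stood above all other members in WT mice, at 21.4 ± 4.41 in striatum and 22.7 ± 2.49 in cortex (SD, n = 8). Next came Cmpk2 (7.43 ± 0.875), Stat2 (6.51 ± 0.557) and Irf9 (6.30 ± 0.974) in striatum, and Stat2 (7.60 ± 0.557), Cmpk2 (7.13 ± 0.525) and Xaf1 (5.57 ± 0.804) in cortex. Stat2 and Irf9 in striatum, and Stat2 and Cmpk2 in cortex, were neighbours whose means lay within 1 SD of each other. Zbp1 and Oas3 were at 0.102 and 0.0148 FPKM in striatum, and Mx1 at 0.0894.

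Interferon genes themselves were hardly detected. Of 20 ligand genes, among them Ifnb1, the alpha interferons and Ifng, between 12 and 15 had no count in any library of a group. Their summed level was at most 0.146 CPM in any library, and none passed the filter. Of 9 receptor, kinase and STAT genes 6 rose and 2 fell in striatum, and 6 rose and 0 fell in cortex (5 without WT animal 8). Over all genes tested, 25.7% rose and 24.4% fell in striatum, and 21.3% rose and 22.6% fell in cortex. Ifnar1 rose by 0.18 ± 0.04 in striatum and was not called in cortex (0.12 ± 0.07), and Ifnar2 rose by 0.18 ± 0.05 and 0.14 ± 0.06. Ifngr2, a chain of the interferon gamma receptor, rose by 0.48 ± 0.09 and 0.35 ± 0.06, and Jak1 by 0.26 ± 0.05 and 0.19 ± 0.05, while Jak2 fell by 0.23 ± 0.05 in striatum.

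Of 16 other sensors and adaptors 2 rose and 3 fell in striatum, and 3 rose and 2 fell in cortex. Eif2ak2, the kinase PKR that double-stranded RNA activates, rose by 0.89 ± 0.12 (adjusted p = 1.38e-06) and 0.95 ± 0.11 (adjusted p = 2.33e-07). Myd88, an adaptor of Toll-like receptors, rose by 0.45 ± 0.08 and 0.40 ± 0.07. Among 10 genes that restrain the response, 3 rose and 1 fell in striatum, and 2 rose and 2 fell in cortex. Neither list stood clearly above the shares of all genes that rose (25.7% in striatum and 21.3% in cortex) or fell (24.4% and 22.6%). Samhd1, which breaks down nucleotides, rose by 0.36 ± 0.05 and 0.58 ± 0.05. Socs3, a feedback inhibitor of Janus kinases, fell by 0.59 ± 0.18 and 1.06 ± 0.19.

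Of the other interferon-induced genes listed, 17 of 51 tested rose and 2 fell in striatum, and 31 of 52 rose and 5 fell in cortex. Of all genes 25.7% rose in striatum, so the striatal count was not far above that share, and 21.3% rose in cortex. Without WT animal 8 the counts were 28 and 2 in striatum, and 33 and 5 of 51 in cortex. The largest rises were of Ifi209 (1.76 ± 0.37), Ifi204 (1.61 ± 0.36) and Ddx60 (1.11 ± 0.29) in striatum and of Oas1g (2.40 ± 0.44), Ifi209 (2.03 ± 0.41) and Ifi27l2a (1.75 ± 0.35) in cortex. Ifi204 and Ifi209 belong to a family of interferon-induced DNA-binding proteins. Oas1c fell by 0.92 ± 0.17 and 1.28 ± 0.19. Ly6e, a membrane protein that limits virus entry, fell by 0.93 ± 0.06 in cortex and was not called in striatum (0.06 ± 0.09). Herc6, the main ligase of Isg15 in mice, rose by 0.27 ± 0.11 in striatum and fell by 1.04 ± 0.09 in cortex, a difference between tissues of 1.29 ± 0.15 (adjusted p = 7.26e-07). Of 6 chemokine genes 1 was tested in striatum and not called, and of 2 tested in cortex Cxcl10 rose, from 0.159 ± 0.128 to 0.375 ± 0.240 CPM (1.21 ± 0.44, adjusted p = 0.0282; 1.64 ± 0.44 without WT animal 8).

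Markers of immune cells were read beside these rises. In bulk tissue fewer cells of a type and less RNA per cell cannot be told apart. Of 15 microglial markers 0 rose and 9 fell in striatum (7 without WT animal 8), and 0 rose and 1 fell in cortex (0 without it). Their summed level ran from 606 to 838 CPM in WT, 520 to 619 in vehicle and 438 to 590 CPM in treated R6/2 striatum. In cortex the ranges were 432 to 580, 422 to 544 and 400 to 494 CPM. Of 12 T and NK cell markers 6 to 10, depending on the group, were under 0.1 CPM in every library of that group. Their sum ran from 95.1 to 123 CPM in WT and from 17.9 to 29.7 CPM in vehicle R6/2 striatum, and from 1.79 to 4.11 and 1.25 to 2.84 CPM in cortex. Of these 12, 2 passed the filter, so the sum cannot show whether T or NK cells were present or changed. Cd4 fell by 2.22 ± 0.35 in striatum and 2.53 ± 0.41 in cortex, and Lck rose by 0.45 ± 0.11 and 0.61 ± 0.18. The neutrophil markers summed to at most 0.911 CPM in any library, with Ly6g at 0 in 5 of the 6 groups. The 6 monocyte markers summed to 0.582 to 3.45 CPM. Of 8 endothelial markers 8 fell in striatum and 1 in cortex, and of 8 astrocyte markers 6 fell and 1 rose in striatum and 5 fell in cortex. Of 6 neuron markers 6 and 5 fell, of 6 oligodendrocyte markers 4 and 4, and of 5 blood markers 5 and 5. Of all genes tested 24.4% fell in striatum and 22.6% in cortex. The part of these markers in the interferon results was not tested.

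The second comparison asked what the KMO inhibitor changed in R6/2 mice. By edgeR none of the 38 genes was called in either tissue, and of all genes tested 0% were called in striatum and 0% in cortex. At an unadjusted p under 0.05 there were 0 of the 38 genes in striatum and 2 in cortex, and 447 and 998 of all genes. DESeq2 and limma on FPKM likewise called 0 of the 38. The median log2 difference between treated and vehicle R6/2 mice was 0.10 in striatum and -0.06 in cortex. With the run tag of each library (L1 to L8, from the column headers) as a covariate they were -0.08 and 0.03, so the sign of both turned with that setting. Within the cortical libraries of tags L5 and L6 alone, 0 of the 38 genes were called.

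The smallest p-values in striatum belonged to Ifit2, Xaf1 and Parp12, none of them called. Treated mice were at 9.72, 12.9 and 15.5 CPM for Ifit2 against 9.48, 11.7 and 13.0 CPM with vehicle, a difference of 0.18 ± 0.11 (adjusted p = 1). Xaf1 was at 10.1, 11.7 and 13.3 CPM against 8.87, 10.8 and 12.5 CPM (0.15 ± 0.10), and Parp12 at 15.7, 18 and 22.4 CPM against 15.1, 17.1 and 18.8 CPM (0.12 ± 0.09). The groups overlapped for all 3. In WT striatum Ifit2 was at 6.91, 8.89 and 12.3 CPM, Xaf1 at 6.17, 7.30 and 9.77 CPM and Parp12 at 9.33, 9.84 and 14.5 CPM. In cortex the smallest belonged to Trim30a, Gbp2 and Ifit2. Trim30a was at 3.04, 4.36 and 4.85 CPM in treated and 4.07, 5.20 and 6.43 CPM in vehicle R6/2 mice, a difference of -0.33 ± 0.13 (adjusted p = 0.847; interval -0.57 to -0.08). Gbp2 was at 3.15, 4.36 and 5.69 against 3.89, 5.24 and 8.51 CPM (-0.37 ± 0.15, adjusted p = 0.847), and Ifit2 at 12.0, 14.8 and 15.3 against 13.9, 14.6 and 17.2 CPM (-0.12 ± 0.08, adjusted p = 0.848). These groups overlapped too. In WT cortex Gbp2 was at 2.90, 3.5 and 4.36 CPM and Ifit2 at 11.4, 13.3 and 16.1 CPM. In the tissue where their p was not among the smallest, these genes overlapped between treated and vehicle mice as well. Cortical Xaf1 was at 5.47, 6.84 and 9.56 CPM in WT, 7.63, 9.74 and 11.3 CPM in vehicle and 8.05, 8.83 and 11 CPM in treated R6/2 mice. Cortical Parp12 was at 11, 11.9 and 15 CPM, 16.4, 21.1 and 23.8 CPM, and 18.3, 19.7 and 23.5 CPM, and both R6/2 groups lay above all WT mice. Striatal Gbp2 was at 3.36, 4.17 and 8.31 CPM, 4.73, 5.37 and 6.31 CPM, and 3.30, 4.82 and 5.66 CPM, and striatal Trim30a was at 3.28, 4.74 and 5.86 CPM in treated mice.

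For the genes with the largest R6/2 changes the 95% intervals of the compound's effect were wide. They ran from -0.52 to 0.57 for Irf7, -0.40 to 0.93 for Usp18 and -0.72 to 0.61 for Ifi44 in striatum, and from -0.41 to 0.37, -0.51 to 0.43 and -0.82 to 0.35 in cortex. For Stat2 and Irf9 they were narrower, from -0.05 to 0.14 and -0.09 to 0.28 in striatum, and from -0.09 to 0.11 and -0.07 to 0.17 in cortex. The compound's effect did not differ between tissues for any of the 38 genes at an adjusted p under 0.05 (0% of all genes called; 2 of the 38 and 1239 of all genes at an unadjusted p under 0.05).

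**Figure D3:**
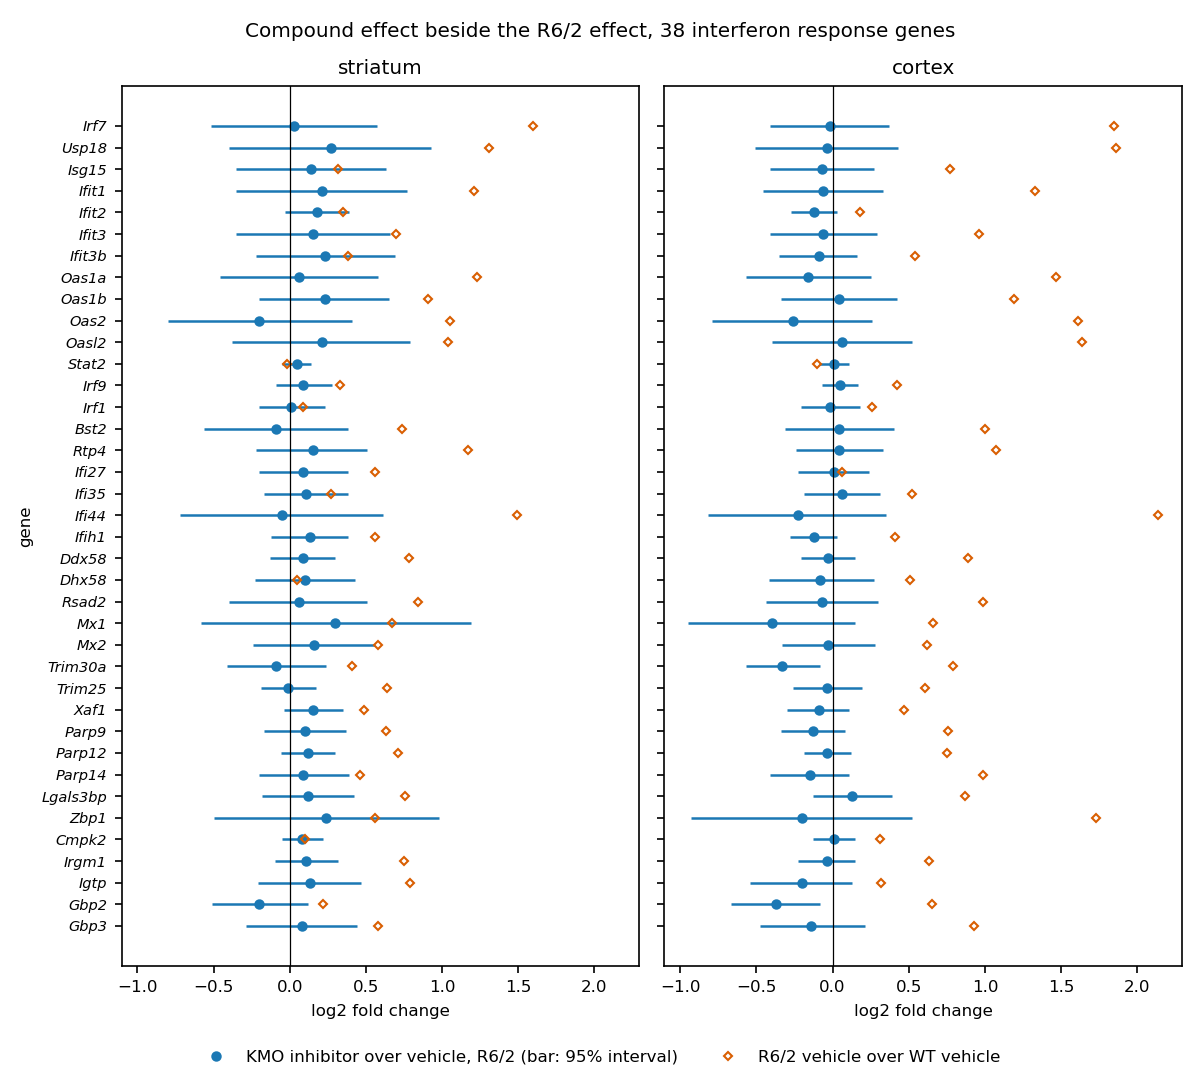
Log2 difference between treated and vehicle R6/2 mice (filled points, bars: 95% interval) beside the R6/2 vehicle change from WT (open diamonds) for 38 genes in striatum and cortex. The intervals of all genes but Trim30a and Gbp2 in cortex include 0, and the filled points stay between -0.40 and 0.30.

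Treated R6/2 mice were also set against the same WT libraries. Here 30 of the 38 genes rose in striatum (27.7% of all genes rose) and 32 in cortex (22.7%), with 0 lower in both. Without WT animal 8 the counts were 34 and 32. The 34 include Mx1 and Zbp1 and the 32 include Zbp1, genes that would not pass the filter in WT libraries alone. Treated and WT cortex share no run tag, and a tag term rests there on the vehicle R6/2 libraries, which span L5 to L8. With it the count in cortex was 25, the median log2 change 0.89 against 0.67, and the calls over all genes 4047 against 8123. These comparisons share the WT libraries with those of the vehicle mice, so their values are only given side by side. Irf7 was higher than in WT by 1.63 ± 0.29 in treated and 1.60 ± 0.29 in vehicle striatum, and by 1.84 ± 0.20 and 1.85 ± 0.21 in cortex. Usp18 was higher by 1.57 ± 0.35 and 1.31 ± 0.36 in striatum and by 1.82 ± 0.25 and 1.86 ± 0.25 in cortex. For Ifi44 the values were 1.44 ± 0.35 and 1.49 ± 0.36, and 1.91 ± 0.32 and 2.14 ± 0.32. Levels of Irf7 in treated mice ran from 4.74 to 7.53 CPM in striatum and from 4.62 to 8.03 CPM in cortex, with medians of 6.45 and 6.86 CPM. Those of Usp18 ran from 1.97 to 5.68 CPM (median 3.93) and from 2.14 to 4.43 CPM (median 3.07), and those of Ifi44 from 1.34 to 4.84 CPM (median 2.41) and from 1.73 to 5.01 CPM (median 2.68). The treated and vehicle groups overlapped for all 3 genes in both tissues.

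Levels of the other members given in full above overlapped between treated and vehicle R6/2 mice as well. Oas1a ran from 1.06 to 2.27 CPM in treated striatum (median 1.68) and from 1.36 to 2.58 CPM in treated cortex (median 1.56). Oasl2 ran from 4.91 to 17.5 CPM (median 10.7) and from 5.84 to 12.8 CPM (median 9.21), and Oas2 from 0.771 to 1.79 CPM (median 1.32) and from 0.694 to 2.21 CPM (median 1.29). Ifit1 ran from 4.61 to 11.7 CPM (median 8.12) and from 4.72 to 9.63 CPM (median 7.26), and Rtp4 from 3.66 to 6.93 CPM (median 4.25) and from 2.99 to 5.81 CPM (median 4.64). Ifi27 ran from 15.5 to 39.9 CPM (median 29.3) and from 12.3 to 25.7 CPM (median 21.3), Parp14 from 7.39 to 10.6 CPM (median 8.72) and from 6.66 to 9.77 CPM (median 8.67). Gbp3 ran from 5.27 to 13.3 CPM (median 10.7) and from 5.87 to 13.4 CPM (median 10.1). Of the transcription factors, Irf9 ran from 17.3 to 25.2 CPM (median 21.4) and from 16.8 to 22.2 CPM (median 20.4), and Stat2 from 28.0 to 32.6 CPM (median 29.9) and from 30.3 to 37.8 CPM (median 33.0). Treated and vehicle levels of these genes overlapped in both tissues.

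The last question was whether the 2 tissues of an animal agreed in these genes. The score of vehicle R6/2 mice was 0.70 ± 0.25 in striatum (SD, n = 7, from 0.36 to 1.0) and 0.85 ± 0.24 in cortex (0.64 to 1.33), and that of treated mice 0.80 ± 0.22 (n = 8, 0.35 to 1.08) and 0.78 ± 0.18 (0.48 to 1.02). With the WT mean taken without animal 8 the means were 0.84 and 0.93 for vehicle and 0.93 and 0.85 for treated mice. Vehicle R6/2 animal 2 was highest of its group in both tissues (1.0 and 1.33) and animal 4 lowest in both (0.36 and 0.64). Treated animal 4 was lowest in both (0.35 and 0.48). Treated animal 5 was highest in striatum (1.08) and 7th of 8 in cortex (0.56).

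Over the animals of a group the scores of the 2 tissues went with r = 0.79 and rho = 0.96 in vehicle R6/2 mice and r = 0.44 and rho = 0.42 in treated mice. Without the 2 animals farthest from the striatal median r was 0.73 and 0.72. Among treated mice these were animal 4, lowest in both tissues, and animal 5, highest in striatum (1.08) and low in cortex (0.56). The r of the scores without either of them alone was not computed. In WT mice r was 0.93 with animal 8 and 0.76 without it. These are descriptions, since the score pools genes measured in the same libraries. Gene by gene, the median r over the 38 genes was 0.69 in WT, 0.69 in vehicle and 0.44 in treated R6/2 mice, against 0.19, 0.50 and 0.25 over all 16964 genes tested in both tissues. It was above 0 for 35, 36 and 28 of the 38 genes, against 65.2%, 83.4% and 70.2% of all genes, so the treated count was near the background. None of the 50892 relations, over all genes and the 3 groups, passed adjustment. In WT mice the r of many members leaned on the 2 animals farthest from the striatal median. Without them it went from 0.77 to -0.19 for Ifit3, from 0.82 to -0.03 for Ddx58 and from 0.68 to -0.39 for Parp9. It stayed at 0.96 for Ifit1 (0.97 with them) and rose from 0.07 to 0.77 for Ifih1. The WT median of 0.69 therefore does not show agreement free of such animals.

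Ifi44 had r = 0.90 (rho = 0.81) in WT, 0.96 (rho = 0.96) in vehicle and 0.98 (rho = 0.90) in treated R6/2 mice. Its exact two-sided permutation p was 0.00384, 0.00278 and 0.000422 (adjusted 0.174, 0.166 and 0.142), and r was 0.66, 0.81 and 0.96 without the 2 animals farthest from the striatal median. Usp18 had r = 0.85 in WT and 0.03 without such 2 animals, so its relation there rested on them. Irf1 had r = -0.89 (rho = -0.69) in treated mice (exact permutation p = 0.00506, adjusted 0.187) and -0.40 without 2 animals.

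**Figure D4:**
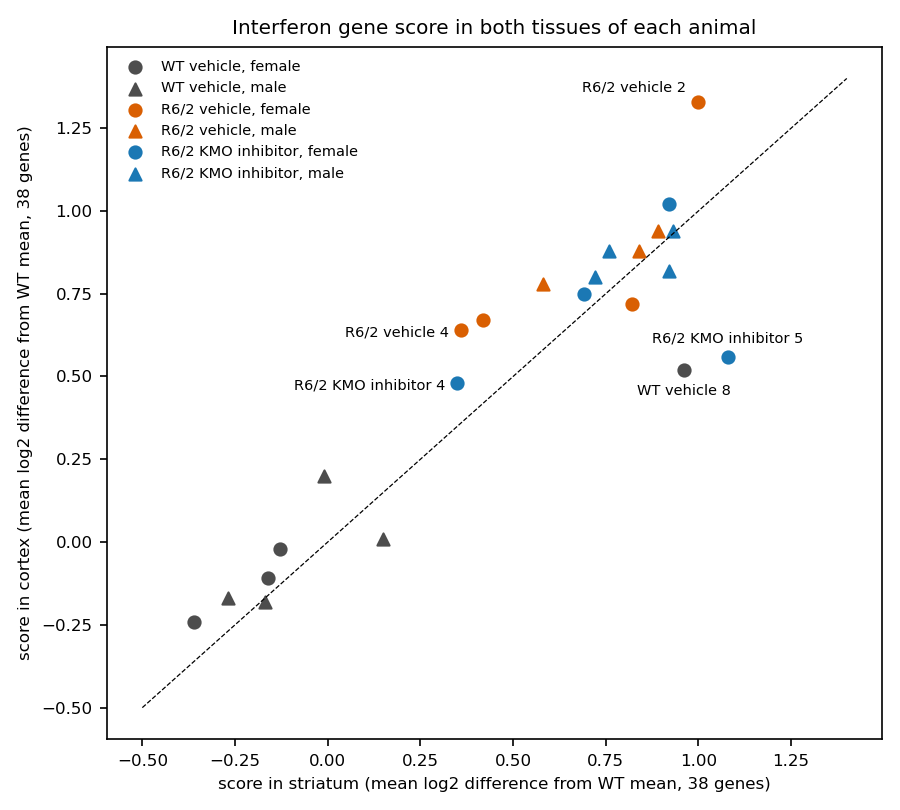
Mean log2 difference from the WT mean over 38 genes in striatum (x) and cortex (y) of each of the 23 animals, by group (colour) and sex (circle: female, triangle: male); the dashed line marks equal scores. All 15 R6/2 animals lie above the 7 other WT animals in both tissues, and WT vehicle 8 lies among the R6/2 animals in striatum.

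Females and males were compared for the R6/2 effect by an interaction of sex and group. By edgeR 0 of the 38 genes was called in striatum and 0 in cortex, with 0% of all genes called in each. At an unadjusted p under 0.05 there were 0 of the 38 in both tissues, and 763 and 1081 of all genes. The median striatal difference over the 38 genes was -0.33 and turned to 0.06 without WT animal 8, a female. In cortex it was -0.07, and 0.10 without that animal.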

How the data were processed

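Estimated counts and FPKM per gene and library were deposited by the authors in 1 table each. Per the submitters' processing notes CASAVA 1.8.2 and build mm10 were used, and per the labels RNA was extracted with miRNeasy from flash-frozen tissue. What aligner, quantifier and strand setting were used was not given in the sources used here. In the deposited counts 33.8% of nonzero values were not whole (tolerance 1e-06), and they were rounded. The labels give separate animals, so replicates are animals.

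The 39 genes and all other lists were chosen with earlier results of these data known. Each tissue was fitted with edgeR 4.0.16 (quasi-likelihood, TMM, filterByExpr) over its 3 groups with sex as a covariate, and p-values were adjusted over all genes tested (17394 in striatum, 17484 in cortex). SE is the log2 fold change divided by the root of F. Tissue differences used 1 fit over both tissues with the animal as a block. Alternatives used DESeq2 1.42.0 and limma 3.58.1 on log2(FPKM + 0.1), with a pseudocount of 1 tried too, and the fits were tested on simulated data. Members were named by a fixed rule on the size of their change over both tissues, the smallest p for the compound and a called tissue difference, with Irf9 and Stat2 added as parts of the complex. Others were given by role, and Jak2, Ly6e, Herc6 and Cd4 were named after their values were seen. Same-numbered replicates of different groups did not deviate together (correlations from -0.27 to 0.14). Tissues were joined by animal from the labels. GENCODE positions are on GRCm38. One item is not reported here.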

Additional observations from a re-analysis of the deposited data

Results flagged for a closer look

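WT animal 8 lay far from the other WT mice in striatum for Ifi44 (2.89 CPM), Irf7 (5.71), Usp18 (4.85), Oasl2 (13.9), Oas2 (1.65), Ifit1 (8.78), Rtp4 (3.49), Gbp2 (8.31), Gbp3 (10.6), Ifit2 (12.3), Parp12 (14.5) and Parp14 (9.45 CPM), and for the score over 38 genes (0.96). In cortex it lay far from them for Usp18 (2.18 CPM) and Ifit1 (5.75 CPM). The gap to the next animal, as a share of the group's range, passed Dixon's limit each time. Vehicle R6/2 animal 2 passed it in cortex for Usp18 (6.05 CPM), Oasl2 (16.5), Ifit1 (11.9) and Rtp4 (6.64 CPM). Among treated mice, animal 2 passed it for Oas1a in cortex (2.58 CPM) and animal 5 for Rtp4 in striatum (6.93 CPM). In all 21 of 114 groups of values had such a sample, and 15 of these were WT animal 8, while chance gives about 1 in 20. Values of different genes from 1 library are not independent.

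The R6/2 effect differed between striatum and cortex, by the interaction test in edgeR, for Ifi27 (0.49 larger in striatum on the log2 scale), Ifi44 (-0.64), Parp14 (-0.55), Gbp3 (-0.35) and Trim30a (-0.39). These are 5 of 38 genes, against 15.7% of all genes. Gbp3 and Trim30a lost the call without WT animal 8, and Trim30a was called in 2 of 15 fits that left out 1 animal.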

How the results depend on the processing

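The counts of genes called among the 38 moved by less than 1.5 times under every alternative and every left-out library. For vehicle R6/2 over WT they ran from 26 to 34 in striatum (28 as reported; 25 to 34 with 1 library left out, lowest without vehicle R6/2 animal 2 and highest without WT animal 8) and from 33 to 34 in cortex (33; 31 to 35). For treated R6/2 over WT they ran from 27 to 36 (30; 26 to 34) and from 25 to 33 (32; 30 to 32), lowest with the run tag as a covariate, which also lowered that cortical count over all genes from 8123 to 4047. On the FPKM scale treated over WT striatum split into 7450 higher and 2783 lower over all genes, against 4814 and 4369, with a median shift of 0.15. The compound's count was 0 throughout. The tissue difference gave 4 to 7 calls with 1 animal left out (5), and WT tissues 14 to 16 (15). In an alternative chosen after seeing the data, 19 genes in striatum, and not 2, had groups that did not overlap without WT animal 8. With a replicate block the counts were 29, 0 and 33 in striatum (vehicle over WT, compound, treated over WT) and 33, 0 and 31 in cortex, and the numbers did not pair the samples. Near-equal copies, overlapping genes read without known strand, and levels under 1 CPM (Zbp1, Mx1, Oas3) limit single genes most.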
